A study of Homo sapiens with 12 samples.

Results

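Osimertinib and erlotinib, a pair of EGFR kinase inhibitors, were compared directly in H1650 cells after the same 36 h of treatment. The comparison used the libraries labelled H1650 with osimertinib at 0.1 μM and those labelled H1650 with erlotinib at 10 μM, which were 4 of the 12 libraries of the series, with 2 replicates per drug. H1650 is an established non-small cell lung cancer line with an activating EGFR mutation, its genotype label reads wild-type, and the cells grew in RPMI with fetal bovine serum. Polyadenylated RNA was sequenced, and the number of reads per gene was analysed. The drugs were given at different concentrations and no other concentration was analysed here, so the effect of the compound and that of its dose cannot be told apart in any difference below. Both drug groups had the same time in culture, and the study describes its replicates as biological. Neither it nor the labels say how the cultures were separated. P-values measure only the spread between libraries, which was estimated over the 12 of the series.

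EGFR is a receptor tyrosine kinase at the cell surface that, when active, signals to growth through the RAS and ERK cascade and through PI3K, AKT and mTOR. ERK activity is read out by short-lived target genes such as the Sprouty and DUSP feedback inhibitors. Amino acid shortage and other stresses act on the transcription factor ATF4, which switches on amino acid synthesis, amino acid import and the charging of tRNA. Stress in the endoplasmic reticulum acts through XBP1, ATF6 and ATF4, and raises the chaperones that fold secreted proteins. Sterol and fatty acid synthesis follow the SREBP factors, and glycolysis follows HIF1.

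The 4 libraries held between 17961765 and 21612202 counted reads, and mitochondrial genes took 5.77% to 6.56% of them with osimertinib and 6.51% and more with erlotinib, so that the groups overlapped. Values are CPM, reads scaled to the normalized total of the library, and 3 reads, the limit that a count of 0 allows, correspond to between 0.134 and 0.155 CPM in these libraries, for counting error only. Epithelial keratins and EPCAM were abundant, with KRT8 at 2067 to 3864 CPM. The lung lineage factor NKX2-1 had 0 reads in the 4 libraries, and the surfactant genes SFTPA1, SFTPB and SFTPC had at most 1 read in any of them. Of the 17 markers of blood, endothelial, fibroblast and neuroendocrine cells, 8 were below the expression filter, among them PTPRC, CD3E, DCN and LUM. The summed level of the 9 others was 13.9 and 14.1 CPM with erlotinib and 25.5 and 25.9 CPM with osimertinib. COL3A1, the single marker of the 9 that was called, gave 7.07 and 6.75 CPM of the sum with erlotinib and 19.9 and 19.6 CPM with osimertinib. The part of other cells in the results was not tested.

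A gene is called below when its Benjamini-Hochberg adjusted p in edgeR's quasi-likelihood test was under 0.05, and a positive log2 fold change means a higher level with osimertinib. Of 19108 genes tested, 1672 were called (8.75%). Of these, 959 were higher with osimertinib (5.02% of the genes tested) and 713 were lower (3.73%). The difference was more than 2-fold for 183 genes (0.958%), 73 of them higher and 110 of them lower with osimertinib. Over all tested genes the median log2 fold change was 0 and the median of its size was 0.19.

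**Figure D1:**
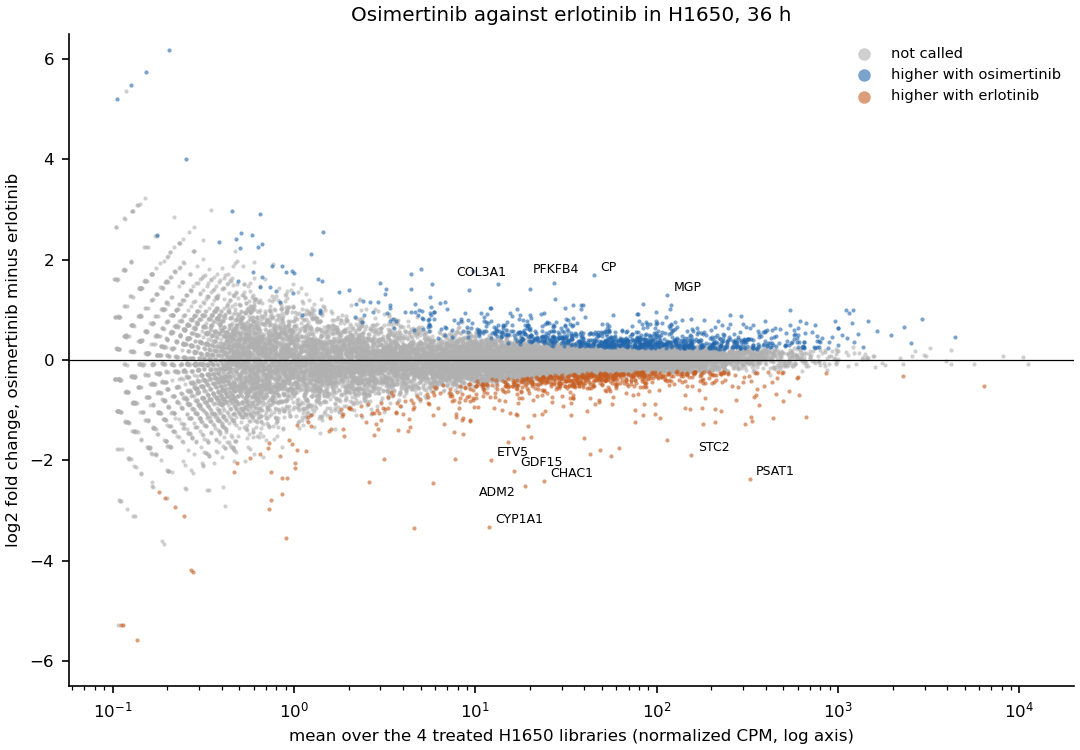
Log2 fold change of osimertinib against erlotinib in H1650 (y axis) against the mean level over the 4 treated libraries in normalized CPM (x axis, log scale), 1 point per gene with a mean above 0.1 CPM. Blue and orange points are the genes called higher and lower with osimertinib. CYP1A1, ADM2, CHAC1 and PSAT1 lie lowest among the abundant genes, and CP, PFKFB4 and COL3A1 highest.

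The genes named next were called, had a mean of at least 10 CPM and were picked to have groups that do not overlap. Those lowest with osimertinib were led by CYP1A1, ADM2, CHAC1 and PSAT1. CYP1A1, a cytochrome P450 that oxidizes foreign and endogenous compounds and lies at chr15:74719542-74725610 in GENCODE 29 on GRCh38, had 17.6 and 25.7 CPM with erlotinib and 2.34 and 1.96 CPM with osimertinib. It was therefore 10.1-fold lower with osimertinib (log2 fold change −3.33, SE 0.21, edgeR adjusted p = 9.23e-12). CHAC1 (chr15:40952962-40956519), which degrades glutathione, had 40.6 and 39.7 CPM with erlotinib and 6.40 and 8.55 CPM with osimertinib. Its groups lay far apart, 5.36-fold on average (log2 −2.42, SE 0.15, edgeR adjusted p = 8.73e-12). PSAT1 (chr9:78297143-78330093), an aminotransferase of serine synthesis, stood at 541 and 553 CPM with erlotinib and at 108 and 101 CPM with osimertinib, 5.22-fold lower (log2 −2.38, SE 0.07, edgeR adjusted p = 7.37e-19). The peptide hormone gene ADM2 had 31.7 and 32.2 CPM with erlotinib and 7.02 and 4.28 CPM with osimertinib, and GDF15, a stress-induced cytokine, 29.1 and 24.8 CPM against 7.11 and 4.59 CPM. For both genes the lowest erlotinib library was above the highest osimertinib library by more than 3-fold. The other genes of this group were ETV5, ALDH1L2, STC2, PCK2, SLC7A11, SLC1A4 and KLHDC7B, with log2 fold changes between −2.00 and −1.63.

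The genes highest with osimertinib differed less in size. CP (chr3:149162410-149222055), which encodes the copper-binding ferroxidase ceruloplasmin, had 23.5 and 19.7 CPM with erlotinib and 73.5 and 64.8 CPM with osimertinib (log2 1.68, SE 0.14, edgeR adjusted p = 8.95e-10). PFKFB4 (chr3:48517684-48562015), an enzyme that makes and breaks down an activator of glycolysis, had 14.5 and 13.5 CPM against 40.3 and 40.1 CPM (log2 1.52, SE 0.11, edgeR adjusted p = 9.21e-11). The fibrillar collagen COL3A1 had 7.07 and 6.75 CPM with erlotinib and 19.9 and 19.6 CPM with osimertinib. Their groups did not overlap, which was a condition for naming them and is no result. CAPN14, MGP, PPP1R3C, KRT16, LOXL4, STC1, S100A8, the long noncoding RNA UCA1 and C3 followed, with log2 fold changes from 1.41 down to 1.04. MGP inhibits calcification of matrix, PPP1R3C directs a phosphatase to glycogen, and C3 is the central component of complement.

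**Figure D2:**
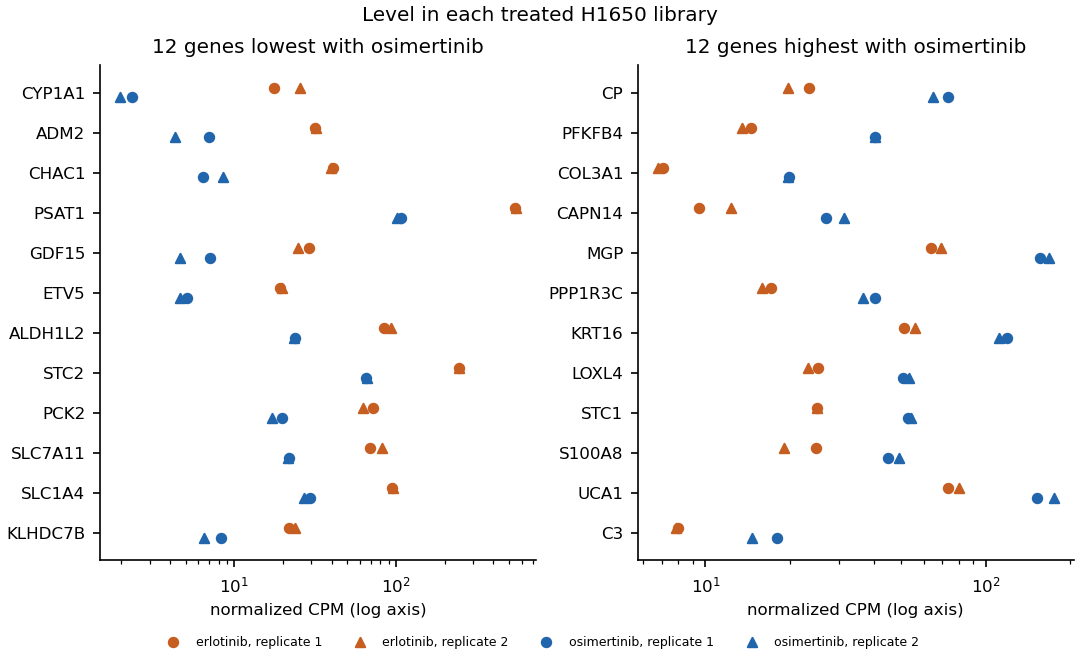
Normalized CPM (log axis) of each of the 4 treated H1650 libraries for the 12 genes lowest and the 12 highest with osimertinib among called genes with a mean of at least 10 CPM and groups that do not overlap. Orange marks erlotinib and blue osimertinib, with a circle for replicate 1 and a triangle for replicate 2. The gap is widest for CYP1A1. The replicates of a group lie close to each other compared with the gap between the drugs, which follows from how the genes were picked and is no result.

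ATF4 with other stress regulators, and genes of the processes that it switches on, were then examined as 4 lists. Whether each member responds to ATF4 was not tested. In the list of ATF4 and stress regulators, 12 of 20 tested members were lower with osimertinib and 1 was higher, with a median log2 fold change of −0.74 (−0.58 over members with a mean of at least 1 CPM) against 0 over all genes. ATF4 itself had 430 and 423 CPM with erlotinib and 285 and 287 CPM with osimertinib, which is 1.49-fold lower (log2 −0.58, SE 0.07, edgeR adjusted p = 5.14e-07). TRIB3, a pseudokinase that restrains ATF4 signalling, had 175 and 170 CPM against 59.8 and 53.8 CPM. The growth arrest factor SESN2, the small stress protein NUPR1 and the ATF4 partner CEBPG were also lower, with log2 fold changes of −1.55, −1.25 and −1.09. DDIT3, which encodes the stress factor CHOP, had 7.95 and 9.50 CPM with erlotinib and 5.73 and 5.88 CPM with osimertinib (log2 −0.59, SE 0.18, edgeR adjusted p = 0.0399). This call was lost without either osimertinib library (adjusted p = 0.190 and 0.129), without erlotinib replicate 2 (0.308) and in DESeq2 (0.0944), and 31.6% of the exon bases of DDIT3 overlap genes on the other strand. PPP1R15A, the phosphatase subunit that restores translation after stress, was the member that was higher with osimertinib (log2 0.45, SE 0.08, edgeR adjusted p = 0.00046). ATF3 and ATF5, at 36.1 to 40.6 and 42.5 to 57.1 CPM, were not called, and FGF21, a secreted hormone, had at most 0.774 CPM in any library and did not pass either (edgeR adjusted p = 0.0652).

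Enzymes that make serine, glycine, proline and asparagine and that carry one-carbon units formed the list with the lowest median, −0.91. Of its 18 members 13 were lower with osimertinib and 2 higher. PHGDH, which commits glycolytic carbon to serine, had 437 and 431 CPM with erlotinib and 181 and 177 CPM with osimertinib (log2 −1.28, SE 0.07, edgeR adjusted p = 1.90e-13). The mitochondrial folate enzymes ALDH1L2, MTHFD2 and SHMT2 were lower by 1.91, 1.16 and 1.16 on the log2 scale, whereas their cytosolic counterparts SHMT1 and MTHFD1 were not called (log2 −0.11 and −0.01). PCK2, the mitochondrial phosphoenolpyruvate carboxykinase, and GPT2, the mitochondrial alanine aminotransferase, were lower by 1.87 and 1.27. ASNS, the asparagine synthetase, had 10.3 and 9.54 CPM against 1.86 and 1.74 CPM (log2 −2.46, SE 0.23, edgeR adjusted p = 1.53e-08), a low level in a table in which 44.6% of the ASNS exon bases also belong to another annotated gene on the same strand. Of the 2 members higher with osimertinib, the smaller difference was that of ALDH18A1, of proline synthesis, with 63.2 and 70.0 CPM against 89.3 and 82.6 CPM (log2 0.37, SE 0.08, edgeR adjusted p = 0.00266). The ALDH18A1 call was lost without osimertinib replicate 1 (adjusted p = 0.0825) or erlotinib replicate 1 (0.0806), and in each of these refits 1 member was still called higher.

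Of the amino acid transporters, 10 of 19 tested members were lower with osimertinib, with a median log2 fold change of −0.25 (−0.78 over members with a mean of at least 1 CPM). By edgeR and by DESeq2 0 were higher, 1 was higher at an unadjusted p under 0.05, and 1 was called higher with RLE normalization or without osimertinib replicate 2. The cystine importer SLC7A11 had 68.7 and 82.0 CPM with erlotinib and 21.9 and 21.5 CPM with osimertinib, and the neutral amino acid exchanger SLC1A4 had 94.5 and 96.3 CPM against 29.5 and 27.0 CPM. Both differed by more than 3-fold. SLC7A5 and SLC3A2, the subunits of the large neutral amino acid exchanger, were lower by 1.13 and 0.81 on the log2 scale, and the glutamine carrier SLC1A5 by 0.81. SLC38A2, a glutamine carrier of another family, had 558 and 579 CPM against 600 and 618 CPM and was not called (log2 0.10, SE 0.07, 95% interval −0.04 to 0.24).

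Among the 20 cytosolic aminoacyl-tRNA synthetases, which charge tRNAs with their amino acids, 12 were lower with osimertinib and 3 higher. WARS1, for tryptophan, had 278 and 309 CPM with erlotinib and 129 and 121 CPM with osimertinib (log2 −1.23, SE 0.08, edgeR adjusted p = 3.39e-12). GARS1, for glycine, had 437 and 475 CPM against 205 and 208 CPM (log2 −1.14, SE 0.07, edgeR adjusted p = 9.28e-12). MARS1, YARS1 and SARS1 followed at −0.99, −0.97 and −0.96. HARS1, VARS1, FARSA, FARSB and QARS1 were not called, and the higher members included KARS1 and RARS1, by 0.22 and 0.26. The 3 higher calls were not stable, since 0 synthetases were called higher without erlotinib replicate 1 or without osimertinib replicate 2, and 1 without osimertinib replicate 1, while 11 or 12 were called lower whichever library was left out.

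**Figure D3:**
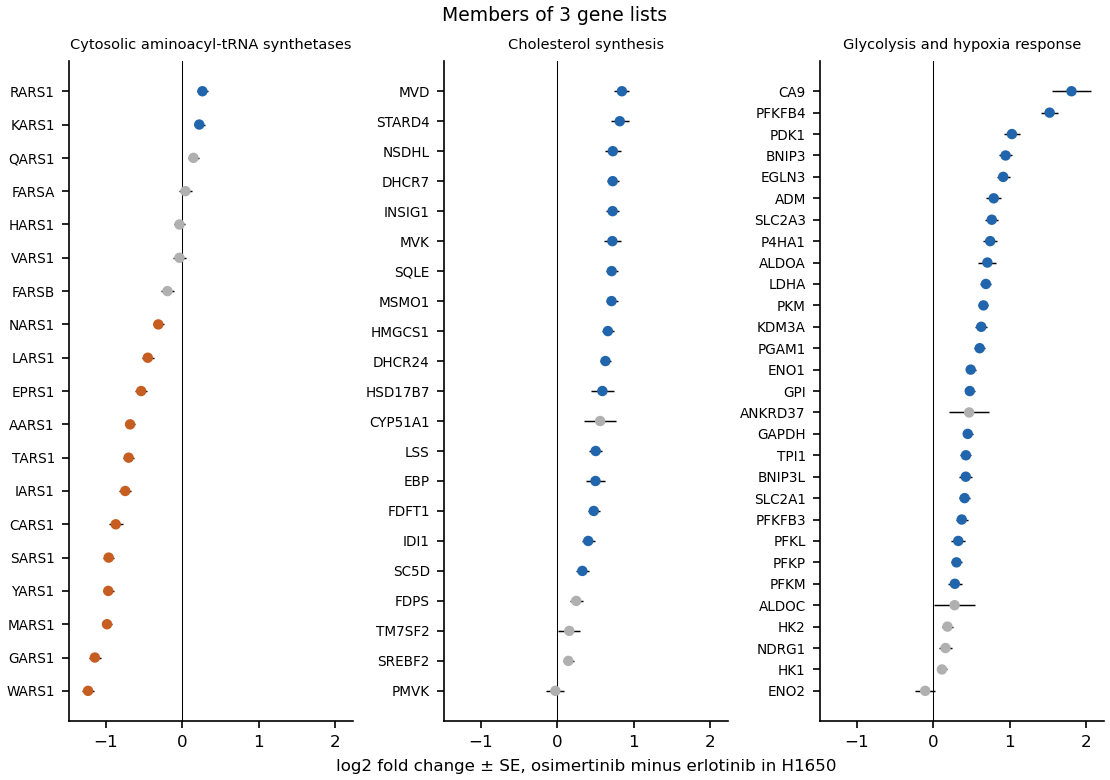
Log2 fold change of osimertinib against erlotinib in H1650 (x axis), with its standard error as a bar, for members with a mean of at least 1 CPM of 3 gene lists. Blue marks genes called higher with osimertinib, orange genes called lower and grey genes that were not called. Some members are not drawn. WARS1 lies lowest among the synthetases at −1.23, whereas the called members of the cholesterol and glycolysis lists lie to the right of 0.

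The letters ahead of the RefSeq start sites of these genes were searched, since ATF4 binds with C/EBP proteins at an element read as TGATGNAA on either strand. In the 250 bases upstream of the starts, 12 of the 61 members of the 4 lists with a promoter in the RefSeq table (GRCh38.p14) held it (19.7%), against 3.89% of all 27305 genes of that table. Many genes have several start sites, and by window the shares were 13.4% and 3.14%. The windows of 5 members whose level differed between the drugs are shown 5′ to 3′ in the direction of the gene, with the element in capitals.
CHAC1 (chr15:40953251-40953280, + strand): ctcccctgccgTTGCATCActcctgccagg
ASNS (chr7:97872458-97872487, − strand): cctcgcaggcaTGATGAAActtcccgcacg
GARS1 (chr7:30594834-30594863, + strand): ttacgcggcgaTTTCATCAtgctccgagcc
IARS1 (chr9:92293698-92293721, − strand): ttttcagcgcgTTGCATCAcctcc
AARS1 (chr16:70289675-70289704, − strand): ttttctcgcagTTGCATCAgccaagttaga
In CHAC1, GARS1, IARS1 and AARS1 the element reads on the strand opposite to the gene. With 25 flanking bases each of the 5 windows overlapped an exon in GENCODE 29, and fewer bases are shown. The windows of CHAC1, ASNS, GARS1 and IARS1 lie within the bounds of the gene in that annotation, so they are upstream only of the RefSeq start used. ATF3, which held the element too, was not called, and PSAT1, PHGDH and TRIB3 were not among the members that held it in these windows.

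Several chaperones of the endoplasmic reticulum were higher with osimertinib. Of 22 tested members 8 were higher with osimertinib and 1, XBP1, was lower, with a median log2 fold change of 0.12. CALR, which encodes the calcium-binding lectin chaperone calreticulin, had 722 and 755 CPM with erlotinib and 1515 and 1424 CPM with osimertinib (log2 0.99, SE 0.07, edgeR adjusted p = 1.78e-10). HSP90B1, the HSP90 of this compartment, had 750 and 822 CPM against 1238 and 1192 CPM (log2 0.63, SE 0.07, edgeR adjusted p = 6.12e-07). The disulfide isomerases PDIA4, PDIA6 and PDIA3 were higher by 0.42, 0.39 and 0.34, and the chaperone partners SDF2L1 and CRELD2 by 0.69 and 0.59. The SDF2L1 call was lost without osimertinib replicate 1 (adjusted p = 0.119) or erlotinib replicate 2 (0.0541), and 6 to 8 members of the list were called higher when a library was left out. HSPA5, the chaperone BiP, was not called, at 641 and 684 CPM against 732 and 698 CPM (log2 0.11, 95% interval −0.03 to 0.25). XBP1, the transcription factor of this response, had 110 and 110 CPM with erlotinib and 75.4 and 67.1 CPM with osimertinib (log2 −0.63, SE 0.08, edgeR adjusted p = 4.87e-06).

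The element that ER stress factors read, CCAAT followed 9 bases later by CCACG, stood in the 250 bases upstream of 7 of the 22 members of that list with a promoter in the table (31.8%), against 0.0916% of all genes in the table. The 6 members shown here, with the outer letters of the element in capitals, had log2 fold changes of 0.99 (CALR), 0.63 (HSP90B1), 0.59 (CRELD2), 0.39 (PDIA6), 0.11 (HSPA5, not called) and −0.63 (XBP1).
CALR (chr19:12938359-12938427, + strand): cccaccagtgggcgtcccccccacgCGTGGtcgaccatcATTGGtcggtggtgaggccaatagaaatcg
HSP90B1 (chr12:103930316-103930344, + strand): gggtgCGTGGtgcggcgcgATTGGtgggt
CRELD2 (chr22:49918529-49918597, + strand): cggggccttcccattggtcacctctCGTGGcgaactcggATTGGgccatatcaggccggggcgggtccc
PDIA6 (chr2:10812848-10812876, − strand): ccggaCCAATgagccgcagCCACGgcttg
HSPA5 (chr9:125241366-125241434, − strand): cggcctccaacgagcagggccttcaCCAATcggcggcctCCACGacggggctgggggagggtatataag
XBP1 (chr22:28800598-28800626, − strand): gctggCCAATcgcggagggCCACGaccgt
Genes with the element were thus found higher, not called and lower with osimertinib. With 25 flanking bases the windows of HSP90B1, PDIA6 and XBP1 overlapped an exon in GENCODE 29, and fewer bases are shown for them.

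More targets of ERK were lower with osimertinib than higher. In the ERK output list 10 of 21 members were lower and 3 were higher, and the median log2 fold change was −0.41. ETV5, an ETS factor that ERK induces, had 19.2 and 19.6 CPM with erlotinib and 5.11 and 4.59 CPM with osimertinib, 4.01-fold lower (log2 −2.00, SE 0.15, edgeR adjusted p = 2.18e-10). Its relative ETV4 had 5.26 and 4.56 CPM against 2.29 and 2.49 CPM (log2 −1.03, SE 0.19, edgeR adjusted p = 0.000639). The feedback inhibitors SPRY4, DUSP4, SPRED1, SPRED2 and SPRY2 were lower by 1.29, 1.19, 1.02, 0.62 and 0.54, and the cyclin CCND1, which drives entry into the cell cycle, by 0.41. DUSP6, the phosphatase that removes ERK's activating phosphates, was low, with 2.17 and 3.21 CPM against 1.58 and 1.43 CPM (log2 −0.85, SE 0.29, edgeR adjusted p = 0.0640), and 40.5% of its exon bases overlap a gene on the other strand. It passed the test without erlotinib replicate 1 (log2 −1.10, adjusted p = 0.0377). EGR1 and FOS, transcription factors that are switched on within minutes of a stimulus, had the opposite sign. EGR1 stood at 73.0 and 83.3 CPM with erlotinib and 163 and 152 CPM with osimertinib (log2 1.01, SE 0.10, edgeR adjusted p = 1.92e-08), and FOS at 69.6 and 76.8 CPM against 119 and 130 CPM.

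EGFR transcripts were 435 and 481 CPM with erlotinib and 611 and 571 CPM with osimertinib (log2 0.37, SE 0.07, edgeR adjusted p = 0.00136). ERBB3, the partner receptor with a weak kinase, was not called, at 63.2 and 60.5 CPM against 59.3 and 60.6 CPM (95% interval of the log2 difference −0.21 to 0.12). Of 17 tested ligands, receptors and feedback genes of this family 4, EGF, SOCS3, EGFR and ERBB2, were higher and 2, the ligands HBEGF and EPGN, lower. The ligands AREG and EREG were at most 3.04 and 0.559 CPM in any of the 4 libraries and were not called. The EGF call was lost in each refit that left out a library and also with every treated library kept, at adjusted p = 0.0614 without a filter, 0.0572 with the 6 H1650 libraries and 0.128 with the 4 treated ones. The counts of this family also rested on single libraries, since 1 member was higher without osimertinib replicate 1 or erlotinib replicate 2 and 2 without erlotinib replicate 1, and 0 were lower without erlotinib replicate 2 and 1 without either osimertinib library.

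Genes of glycolysis and the hypoxia response were higher with osimertinib in 23 of 29 cases and lower in 0, with a median log2 fold change of 0.48. The glucose carrier SLC2A1 had 286 and 286 CPM with erlotinib and 390 and 369 CPM with osimertinib (log2 0.41, SE 0.07, edgeR adjusted p = 0.000161). PGAM1, ENO1, PKM and LDHA, which act late in the pathway, were higher by 0.61, 0.49, 0.66 and 0.69, with LDHA at 565 and 580 CPM against 891 and 955 CPM. PDK1, a kinase that inhibits pyruvate dehydrogenase, had 22.0 and 19.1 CPM against 41.8 and 42.0 CPM (log2 1.03, SE 0.11, edgeR adjusted p = 1.03e-07). BNIP3 and EGLN3, targets of HIF1, were higher by 0.95 and 0.92. CA9, the carbonic anhydrase that marks hypoxic cells, had 2.17 and 2.28 CPM against 8.88 and 6.77 CPM (log2 1.81, SE 0.25, edgeR adjusted p = 1.26e-05), with 38.5% of its exon bases overlapping a gene on the other strand. HK1, HK2, ENO2, ALDOC, NDRG1 and ANKRD37 were not called. VEGFA, a HIF1 target that was listed with ATF4, was lower with osimertinib (log2 −0.29, SE 0.08, edgeR adjusted p = 0.0120). The core of the hypoxia element, ACGTG on either strand, was found in the upstream windows of 16 of the 26 members with a promoter in the table (61.5%) and of 21.7% of all genes, or in 38.8% of the members' windows and 18.5% of all windows, since many genes have several start sites. The share was 61.1% among the amino acid transporters and 42.1% among the lysosome genes. LDHA is shown because it held 5 matches, counted on both strands where CACGTG reads the same either way. Those nearest the start are in capitals. With 25 flanking bases the LDHA window overlapped an exon in GENCODE 29.
LDHA (chr11:18394471-18394499, + strand): actcaCACGTGggttcccgCACGTccgcc

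Cholesterol synthesis followed the same direction, with 18 of 24 members higher with osimertinib, 0 lower and a median of 0.58. HMGCS1, which feeds the pathway, had 95.5 and 105 CPM with erlotinib and 153 and 164 CPM with osimertinib (log2 0.66, SE 0.08, edgeR adjusted p = 5.08e-07). The later enzymes SQLE, MSMO1, DHCR7 and MVD were higher by 0.71, 0.71, 0.72 and 0.85. SREBF2, the factor that controls the pathway, was not called, at 187 and 179 CPM against 206 and 199 CPM (log2 0.14, SE 0.07, edgeR adjusted p = 0.224). The sterol element written as TCACNCCAC was in 1 of the 18 members with a promoter in the table (5.56%), that of SREBF2, and in 1.09% of all genes.

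In fatty acid synthesis 6 of 13 tested members were higher with osimertinib and 0 lower. SCD, the stearoyl desaturase, had 771 and 812 CPM with erlotinib and 1530 and 1508 CPM with osimertinib, 1.92-fold higher (log2 0.94, SE 0.07, edgeR adjusted p = 1.18e-10). FASN, the fatty acid synthase, had 521 and 479 CPM against 867 and 797 CPM, and the desaturase FADS2 68.8 and 64.8 CPM against 108 and 112 CPM. These 3 genes lay apart from the rest of the list, whose other called members, ACLY, ELOVL6 and SREBF1, were higher by 0.28 to 0.44. The count was 3 without osimertinib replicate 1 and 4 without osimertinib replicate 2 or erlotinib replicate 1.

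Targets of the aryl hydrocarbon receptor, a sensor of aromatic compounds, were lower in 6 of 15 cases and higher in 1. After CYP1A1 these were AHRR, the receptor's repressor, with 11.1 and 12.5 CPM with erlotinib and 5.92 and 4.68 CPM with osimertinib, CYP1B1 with 452 and 501 CPM against 257 and 251 CPM, NQO1, TIPARP and SLC7A5, which is also an amino acid transporter. HES1 was the member that was higher (log2 0.49, SE 0.08). AHR itself had 142 and 132 CPM against 160 and 157 CPM and was not called (edgeR adjusted p = 0.0744). The core letters GCGTG of the element this receptor binds stood in 7 of 12 members with a promoter in the table (58.3%), among them CYP1A1 and AHRR but also HES1, and in 36.2% of all genes. By window the shares were 52.9% and 32.2%. Other lists held these letters more often, with 88.9% of members for cholesterol synthesis, 81.2% for the synthetases and 77.8% for the amino acid transporters. In the list of NRF2 antioxidant genes 7 of 22 members were lower and 2, TKT (log2 0.38) and AKR1C3, were higher, or 1 when erlotinib replicate 1 or either osimertinib library was left out. AKR1C3 had at most 1.65 CPM and has near-identical paralogs, so its value is uncertain. The lower ones were SLC7A11, SRXN1, whose exons mostly overlap another gene on the same strand, NQO1, the thioredoxin reductase TXNRD1 (log2 −0.62), GCLC and the ferritin subunits FTL and FTH1, of which SLC7A11 and NQO1 stand in other lists too. HMOX1, a sensitive NRF2 target, had 40.7 and 44.2 CPM against 43.3 and 41.0 CPM and was not called (log2 −0.01, SE 0.10, edgeR adjusted p = 0.988).

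**Figure D4:**
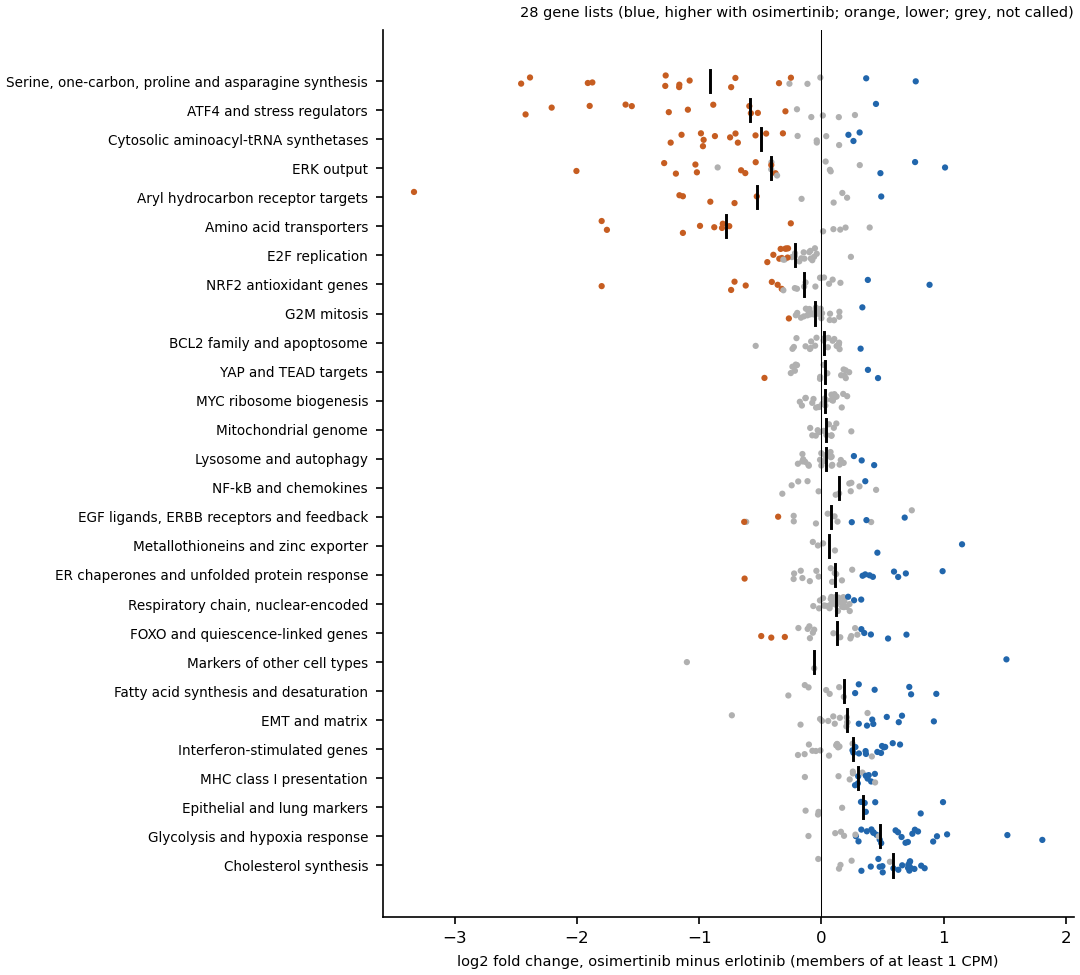
Log2 fold change of osimertinib against erlotinib in H1650 (x axis) for the members with a mean of at least 1 CPM of 28 gene lists (rows, ordered by median over tested members). Each point is a gene, blue if called higher with osimertinib, orange if called lower and grey if not called, and the black bar is the median of the points. Serine synthesis and the ATF4 regulators lie at the top, to the left of 0, and cholesterol synthesis and glycolysis at the bottom, to the right.

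Interferon-stimulated genes were higher with osimertinib in 13 of 29 tested cases and lower in 0, with differences of at most 0.64. ISG15, a ubiquitin-like modifier, had 199 and 186 CPM with erlotinib and 325 and 275 CPM with osimertinib (log2 0.64, SE 0.10, edgeR adjusted p = 4.77e-05), and IFIT1, which binds foreign RNA, had 295 and 285 CPM against 459 and 410 CPM. STAT2, IFIT2, OASL and OAS2 were not called. In antigen presentation by MHC class I, 8 of 15 members were higher and 0 lower, among them B2M, HLA-B, HLA-E and TAP1 at 0.30, 0.39, 0.41 and 0.44. Both counts leaned on osimertinib replicate 1, which had the higher value of the pair for ISG15, IFIT1, HLA-B and TAP1. Without that library 7 interferon genes and 0 MHC class I genes were called, and without erlotinib replicate 1 5 MHC class I genes were. With a replicate block 12 MHC class I genes were called.

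Differences in replication genes were small. In the E2F replication list 9 of 26 members were lower with osimertinib and 0 higher, with a median of −0.22. The factor E2F1 had 277 and 249 CPM with erlotinib and 178 and 210 CPM with osimertinib (log2 −0.44, SE 0.09, edgeR adjusted p = 0.000999), and the ribonucleotide reductase subunit RRM2 had 237 and 260 CPM against 194 and 214 CPM. The count fell to 0 without osimertinib replicate 1, to 2 without erlotinib replicate 2 and to 4 without either of the other libraries, and it was 15 with a replicate block. In the list of mitosis genes 1 of 26, TOP2A, was lower and 1, KIF20A, higher. This is 7.69% called, against 8.75% over all tested genes. TOP2A was not among the calls of every refit, since 0 mitosis genes were lower without erlotinib replicate 2 or either osimertinib library and 2 without erlotinib replicate 1, and 0 were higher without erlotinib replicate 1 or osimertinib replicate 2. MKI67, a marker of cycling cells, had 222 and 293 CPM against 246 and 252 CPM. Of 24 MYC and ribosome biogenesis genes 0 were called by edgeR or DESeq2, with 2 higher and 1 lower at an unadjusted p under 0.05. MYC had 49.3 and 54.1 CPM against 53.0 and 53.0 CPM (95% interval of the log2 difference −0.14 to 0.21).

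Of 23 tested genes of the BCL2 family and apoptosome 1 was called (4.35%), against 8.75% over all tested genes. The called gene was BMF, a BH3-only protein that was higher with osimertinib, at 75.6 CPM ± 4.2 (SD, n = 2) with erlotinib and 94.5 ± 0.72 with osimertinib (log2 0.32, SE 0.08, edgeR adjusted p = 0.0133). It was lost when either osimertinib library (adjusted p = 0.0793 and 0.0846) or erlotinib replicate 1 (0.160) was left out. For BCL2L11, which encodes the death activator BIM, the 95% interval of the log2 difference was −0.02 to 0.31, and for the survival factors MCL1 and BCL2L1 it was −0.01 to 0.26 and −0.24 to 0.07. PMAIP1 and BBC3, the death activators NOXA and PUMA, had intervals of −0.21 to 0.24 and −0.42 to 0.23. Each of these intervals included 0.

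Markers of epithelial identity and matrix genes were partly higher with osimertinib. KRT19 had 847 and 776 CPM with erlotinib and 1713 and 1526 CPM with osimertinib (log2 1.00, SE 0.07, edgeR adjusted p = 1.78e-10), and KRT8, KRT18, EPCAM, CDH1 and MUC1 were higher by 0.32 to 0.81, so that 6 of 11 tested markers were higher and 0 lower. In the EMT and matrix list 8 of 26 were higher and 0 lower, led by the protease PLAU (log2 0.92, SE 0.08), VIM (0.66) and LOXL2 (0.63), and 3 were higher without osimertinib replicate 1 and 4 without erlotinib replicate 1. Among FOXO and quiescence-linked genes 5 of 22 were higher and 3 lower. CDKN1A, which encodes the cell cycle inhibitor p21, had 233 and 236 CPM against 311 and 287 CPM (log2 0.35, SE 0.09, edgeR adjusted p = 0.00868), lost without osimertinib replicate 1 (0.131) or erlotinib replicate 1 (0.0522). TXNIP, which restrains glucose uptake, had 54.0 and 50.1 CPM against 38.3 and 35.8 CPM (log2 −0.49, SE 0.08, edgeR adjusted p = 0.000153). Without osimertinib replicate 1, 3 FOXO-list members were higher, and 1 was lower without that library, osimertinib replicate 2 or erlotinib replicate 2.

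The remaining lists are small in calls, and their shares are set beside the 8.75% called over all tested genes. Of the YAP and TEAD targets 2 of 18 were higher and 1 lower (16.7% called). Of the NF-kB genes 1 of 18 tested was higher (5.56%). Of the lysosome and autophagy genes 3 of 25 were higher (12%), and of the nuclear-encoded respiratory chain genes 3 of 30 (10%). Leaving out a library gave 0 to 1 NF-kB, 0 to 2 lysosome and 0 to 2 respiratory chain calls, the lowest without erlotinib replicate 2, and 3 YAP and TEAD targets were lower without erlotinib replicate 1. DESeq2 called 6 respiratory chain genes. Of the 13 genes of the mitochondrial genome 0 were called by edgeR and 1 by DESeq2, with 1 at an unadjusted p under 0.05. Of 8 tested metallothionein and zinc genes 2 were higher (25%), MT1X (log2 1.15, SE 0.25) and MT2A (0.46, SE 0.08).

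For orientation, the levels before treatment are given without a test. The H1650 T0 libraries, in 0.1% DMSO at 0 h, had 36 h less in culture than the treated ones. PSAT1 was 89.9 CPM ± 0.79 (SD, n = 2) at T0, 547 ± 8.3 with erlotinib and 105 ± 4.7 with osimertinib. CHAC1 was 6.59 ± 0.91 at T0, 40.2 ± 0.63 with erlotinib and 7.47 ± 1.5 with osimertinib. For these genes the osimertinib level was thus nearer to T0. SCD, at 742 ± 11 at T0, 791 ± 29 with erlotinib and 1519 ± 16 with osimertinib, had its erlotinib level nearer to T0. CYP1A1, at 9.23 ± 1.0 at T0, lay between the drug groups.

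The same drugs at the same doses and time were compared in PC9, the other EGFR-mutant lung cancer line of the series, from 4 separate libraries. There 3163 genes were called (16.6%), and 808 genes were called in both lines, which is 48.3% of the H1650 calls and 25.5% of the PC9 calls. The direction was shared for 735 of the 808 and opposite for 73. Over all 19108 tested genes, most of which were called in neither line, the log2 fold changes of the lines correlated weakly (Pearson's r 0.124, Spearman's rho 0.230), given as a description since genes are not independent replicates. The test of the difference itself, the H1650 contrast minus the PC9 contrast, called 995 genes (5.21%).

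Members of 3 of the ATF4 lists were lower with osimertinib in PC9 as well. In PC9, 16 of 20 ATF4 and stress regulators, 14 of 18 synthesis enzymes and 13 of 20 synthetases were lower. The difference between the lines was called for 11, 11 and 12 members of these lists, and for 10, 11 and 12 of them the log2 fold change was lower in PC9. The amino acid transporters were mixed, with 9 of 19 lower and 2 higher in PC9, a median there of −0.16, and 5 that differed between the lines, of which 3 were lower in PC9 and 2 in H1650. PSAT1 fell in PC9 from 604 CPM with erlotinib to 20.6 CPM with osimertinib on average, a log2 fold change of −4.88 (SE 0.08) against −2.38 in H1650, and the difference of 2.49 passed the test (edgeR adjusted p = 4.14e-15). PHGDH differed likewise (−3.43 in PC9, difference 2.16, edgeR adjusted p = 1.28e-14). SLC7A11 went against this pattern, with a larger difference in H1650 (−1.80) than in PC9 (−0.68, edgeR adjusted p of the difference = 3.98e-07).

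Sterol genes separated the lines. In PC9, 2 of the 24 cholesterol synthesis genes were higher with osimertinib and 5 lower, and the difference between the lines was called for 15 of 24, each with the larger value in H1650. In fatty acid synthesis the difference was called for 3 of 13 tested members, each with the larger value in H1650. Among these SCD was 0.94 in H1650 and −0.22 in PC9 (edgeR adjusted p of the difference = 5.96e-09). In glycolysis 9 of 29 members were higher in PC9 and 10 differed between the lines, each larger in H1650, with PFKFB4 at −0.02 in PC9. For replication genes the signs were opposed, since 9 of 26 were higher with osimertinib in PC9 and 1 lower, and the 10 that differed had the lower value in H1650. In the ERK output list 7 of 21 were higher and 3 lower in PC9, and 10 differed between the lines, 9 of them with the lower value in H1650. CYP1A1 was lower with osimertinib in both lines (−3.33 and −2.67), and the test of the difference was not passed (edgeR adjusted p = 0.459).

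**Figure D5:**
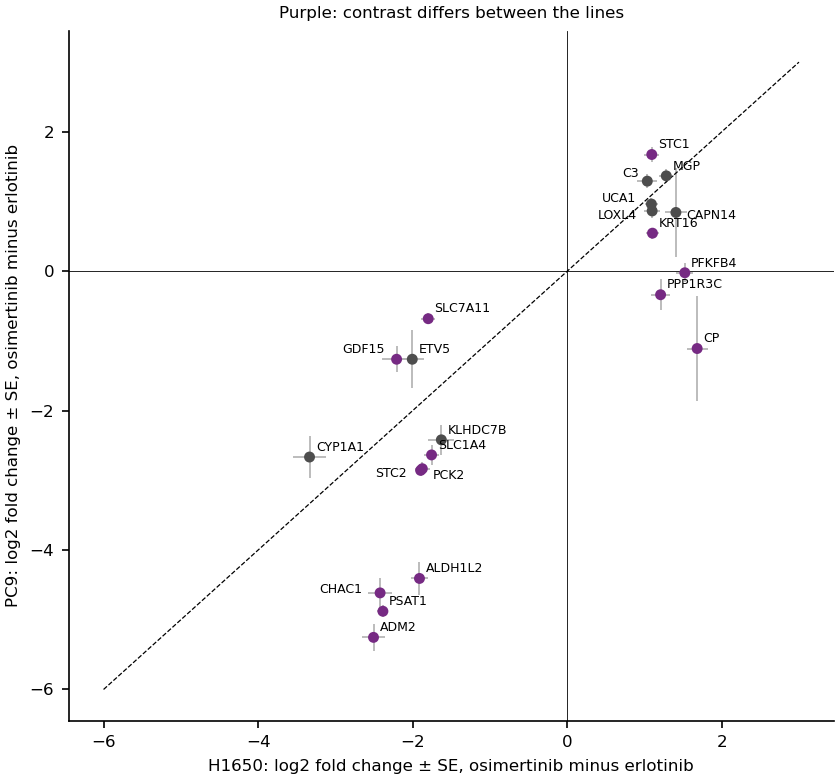
Log2 fold change of osimertinib against erlotinib, with its standard error, in H1650 (x axis) and PC9 (y axis) for 22 of the 24 genes with the lowest and highest values in H1650. COL3A1 and S100A8, with a mean of 0 CPM in both PC9 groups, are left out. The dashed line marks equal values and purple marks the 14 genes whose contrast differed between the lines. ADM2, PSAT1, CHAC1 and ALDH1L2 lie below the line, whereas SLC7A11 and GDF15 lie above it.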

How the data were processed

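Reads had been run through DolphinNext by the authors, who deposited raw featureCounts counts, whole numbers of reads per gene and library for 60591 gene symbols. The submitters' processing notes name GRCh38 and DESeq2, while the aligner, annotation and strandedness are not given in the sources used here, so overlapping genes may share or lose reads. Such overlap is not given for every named gene. Exon bases also overlap genes on the other strand in FTH1 (62.4%), BCL2L1 (43.0%), MTHFD2 (33.2%) and PLAU (31.1%), among others. Groups came from the deposited labels.

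The counts were fitted in R 4.3.3 with edgeR 4.0.16 (limma 3.58.1) by a quasi-likelihood model with 6 groups over the 12 libraries (17961765 to 26346187 reads each) after the expression filter by group, which kept 19108 genes, and TMM normalization. T0 and PC9 libraries thus enter the filter and the spread (6 residual and 20.7 prior degrees of freedom). P-values were adjusted by Benjamini-Hochberg over all tested genes. SE is the size of the log2 fold change divided by the root of F, and intervals are 95% t intervals. In each group the replicates differed by more than sampling noise.

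The comparison, its gene lists and tests were chosen with earlier results of these data known, so no list is independent evidence. The 28 lists hold 588 genes, of which 559 were tested, 26 were below the filter and 3 were not found under the symbols used. Some members are counted in their lists but not reported here by name. Genes are named if they are the 12 highest or 12 lowest called genes with a mean of at least 10 CPM and groups that do not overlap, up to 4 called members per list and direction, listed key members, or other members where a list is described. Gene positions and exon overlaps are from GENCODE 29, and promoter letters from RefSeq (250 bases before each start).

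Counts were simulated with the mean of the treated H1650 libraries in each of the 12 libraries, without differences of line or time. The altered genes were drawn from those above 1 CPM. At a log2 fold change of 1 edgeR recovered 170 of 200 altered genes, with 5 false calls among 17164 genes that passed the filter. At 0.5 it recovered 113 of 200, with 7 false calls among 17158. Without change edgeR made 0 calls, as did DESeq2. The spread of each gene in the simulation was the one that edgeR had fitted to these data. The false calls therefore do not measure the error rate with real cultures. Alternatives comprised DESeq2 1.42.0, normalization by RLE or by upper quartile, no filter, a minimum of 10 counts per library, an adjusted p under 0.01, a log2 fold change over 1, 6 or 4 H1650 libraries alone, a replicate block and leaving out each of the 4 libraries.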

Additional observations from a re-analysis of the deposited data

Results flagged for a closer look

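The contrast of osimertinib against erlotinib differed between H1650 and PC9 for 995 genes by the test of the difference itself. Of the 24 genes with the highest and lowest values in H1650, 14 were among them, and each value here is the log2 fold change in H1650 minus that in PC9. Among genes lower with osimertinib in both lines, the difference was 2.75 for ADM2, 2.50 for ALDH1L2, 2.49 for PSAT1, 2.19 for CHAC1, 0.96 for STC2, 0.96 for PCK2 and 0.88 for SLC1A4, which were lower by more in PC9, and −1.12 for SLC7A11 and −0.94 for GDF15, which were lower by more in H1650. Among genes higher with osimertinib in H1650, it was 2.79 for CP, whose PC9 mean was at most 0.344 CPM in either group, 1.55 for PPP1R3C, 1.54 for PFKFB4, 0.56 for KRT16 and −0.58 for STC1.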

How the results depend on the processing

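The count of 1672 genes was 912 at an adjusted p under 0.01 (554 higher with osimertinib, 358 lower) and 183 with a log2 fold change over 1 as well (73 and 110). It lay between 1463 in DESeq2 and 2055 with the 4 treated H1650 libraries alone under the other settings that kept every library and no block. The same 2 stricter thresholds gave 1930 and 523 genes in PC9 and 500 and 260 for the difference between the lines. The more than 2-fold count of 183 was 120 in DESeq2 and 79 where each library had to hold 10 counts or more.

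Leaving out 1 library gave 782 (without osimertinib replicate 1) to 1140 genes, with 452 to 726 higher and 330 to 503 lower with osimertinib, and 125 to 158 genes of more than 2-fold. The lone sample of a group is then assumed to vary like the other groups. The 24 genes of the highest and lowest values kept their direction and call in each refit that tested them, with adjusted p of at most 0.000186. This was 12 refits for 15 of them and 11 for the other 9, which include CYP1A1, CP and COL3A1 and were not tested under the minimum of 10 counts in each library. Of 135 named genes 0 reversed in a refit that tested them, and 39 lost or gained a call in at least 1 refit, most of them when a library was left out.

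With a replicate block there were 2857 calls in H1650 (1613 higher, 1244 lower), which included the 1672, and 4385 in PC9, and the difference between the lines gave 1850. The deviations between replicates, over all tested genes, had a correlation of 0.0153 between the drug groups of H1650. This cannot decide whether replicate numbers pair the samples, since an effect in part of the genes would be diluted in it. The cause of the added calls was not tested. DUSP6 was called under the block (adjusted p = 0.0372), as were 15 E2F and 12 MHC class I members.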
